A study of Mus musculus with 27 samples.

Results

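Among CD8+ T cells of tumours under combined immunotherapy, PD1+ cells that carried KLRG1 were compared with PD1+ cells that did not. The members were the libraries whose titles name the Tri treatment with the PD1+/KLRG1+ gate (5 libraries, Tri PD1+KLRG1+) or the PD1+/KLRG1- gate (5 libraries, Tri PD1+KLRG1-), 10 of the 27 libraries in the series. This rule reads the titles alone. All 10 came from MC38 tumours, which grow from a mouse colon adenocarcinoma line, and all were sorted from digested tumour tissue as CD45+, CD3+ and CD8+ cells before the PD-1 and KLRG1 gates were applied. Tri is the combined treatment that the series text abbreviates TCT. The sources used here do not give its components, the host strain or the age of the mice, and the labels do not say that each library came from a separate mouse, so p-values measure the spread between these samples. The other Tri groups served for comparison, PD1-KLRG1+ (4 libraries) and PD1-KLRG1- (5 libraries). No PD1+ library of isotype-treated mice was analysed here, so nothing below compares treated with untreated PD1+ cells.

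KLRG1 is a cadherin-binding inhibitory receptor that marks effector CD8+ T cells and NK cells, and in acute infection its appearance accompanies commitment to short-lived effector fate. PD-1 is an inhibitory receptor induced by antigen receptor signalling, and in tumours sustained PD-1 expression accompanies the exhausted state. Killing by CD8+ T cells runs through perforin and granzymes, proteases stored in secretory granules and delivered into target cells, while chemokines such as CCL3, CCL4 and CCL5 recruit further leukocytes.

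Between 12090152 and 21204098 counts were assigned to genes in each of the 10 libraries, but the libraries differed in how many genes they held. At a common depth of 12090152 counts, the Tri PD1+KLRG1+ libraries held 11067, 10814, 11342, 13144 and 13458 genes (replicates 1 to 5), against 14866, 13100, 15278, 14445 and 14966 genes in Tri PD1+KLRG1-. Replicates 1, 2 and 3 of Tri PD1+KLRG1+ were the lowest of all 10 and are called sparse below. Of the 7226 genes whose median reached 20 CPM (a gene's count relative to the scaled library total), these 3 libraries had no count for 2.70%, 3.82% and 2.57%, whereas the 7 other libraries missed at most 0.0830%. The means of 11960 ± 1239 genes in Tri PD1+KLRG1+ and 14530 ± 853.5 genes in Tri PD1+KLRG1- (SD, n = 5 each) differed with a 2-sided exact permutation p of 0.0238, or 0.262 after Benjamini-Hochberg adjustment over 11 library measures (the smallest p that 5 against 5 allows is 0.00794). Shares of mitochondrial transcripts were 0.926% ± 0.241 and 0.751% ± 0.197, with an exact permutation p of 0.238. The sparse libraries belong to the same group and the same name series (descriptions without an RNA-number suffix), so the called genes and the cell cycle list are also given without them, as are the other results that turned or moved without them. Where no value without them is given, the part of gene detection was not tested.

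**Figure D1:**
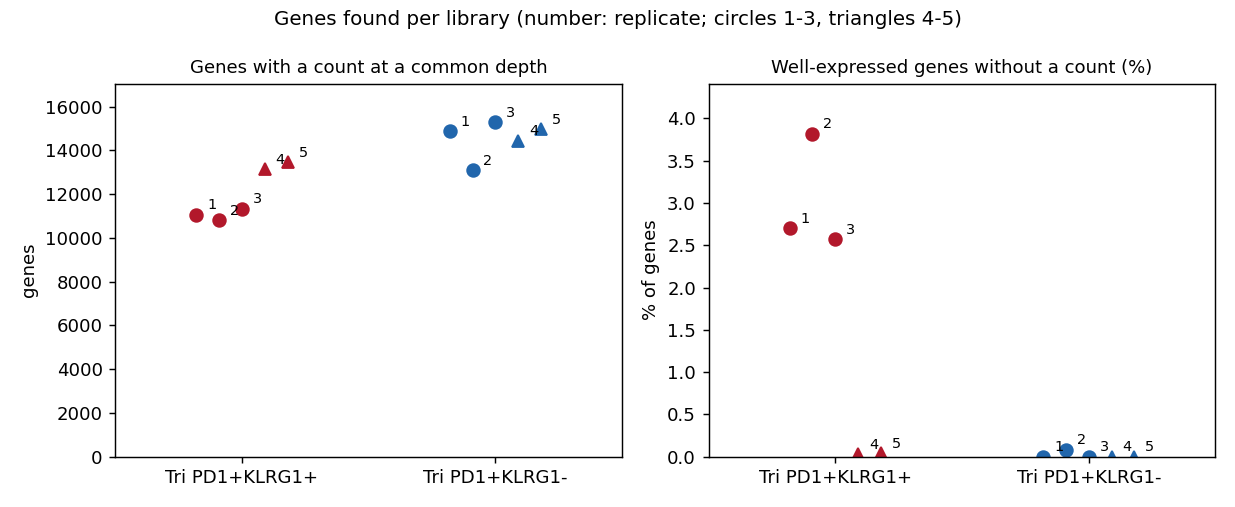
Genes with at least 1 count at a common depth (left) and the percentage of well-expressed genes without a count (right) in each library of Tri PD1+KLRG1+ (red) and Tri PD1+KLRG1- (blue). Replicates 1, 2 and 3 of Tri PD1+KLRG1+ hold 10814 to 11342 genes, below the 13100 to 15278 genes of the Tri PD1+KLRG1- libraries.

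The sort was visible in the transcripts. Klrg1 (ENSMUSG00000030114) stood at 124.5, 146.3, 68.3, 80.8 and 39.3 CPM in Tri PD1+KLRG1+, against 7.95, 4.63, 8.05, 3.51 and 1.47 CPM in Tri PD1+KLRG1-. The lowest KLRG1+ library was above the highest KLRG1- library, and the log2 fold change was 4.22 ± 0.42 (SE). Since KLRG1 protein defined the groups, this checks the labels and is no finding. Pdcd1, which encodes PD-1, was at 688, 632.3, 912.4, 1182 and 1270.0 CPM in Tri PD1+KLRG1+ and 1294, 1121, 1070.0, 1117 and 1634 CPM in Tri PD1+KLRG1-, overlapping ranges with an edgeR quasi-likelihood adjusted p of 0.886. The T cell genes Cd8a, Cd3e and Ptprc did not pass the test either (adjusted p = 0.702, 1.0 and 1.0), and the summed level of 10 CD8 T cell markers was 12620 to 13930 CPM in Tri PD1+KLRG1+ and 11790 to 15270 CPM in Tri PD1+KLRG1-. The summed markers of each other cell type lay below these CD8 T cell sums in both groups. Myeloid markers summed to 225.4 to 782.4 CPM in Tri PD1+KLRG1+ and 268.5 to 712.2 CPM in Tri PD1+KLRG1-, and 15 of the 17 listed were tested. The antigen-presentation gene Cd74 had the highest mean of these in both groups, at 231.3 ± 91.7 CPM in Tri PD1+KLRG1+ and 262.6 ± 102.7 CPM in Tri PD1+KLRG1- (SD, n = 5 each), followed in Tri PD1+KLRG1+ by the lysozyme gene Lyz2 at 44.1 ± 25.0 CPM, against 36.8 ± 10.5 CPM in Tri PD1+KLRG1-. Mrc1 was at 0 in all 10. Itgam, an integrin chain of myeloid cells, was at 59.9, 1.35, 10.4, 29.8 and 0.883 CPM in Tri PD1+KLRG1+, against 2.81, 0, 0.867, 0 and 5.58 CPM in Tri PD1+KLRG1- (3.31 ± 1.54, unadjusted p = 0.0438, adjusted p = 0.620). It was high in replicates 1, 3 and 4 of Tri PD1+KLRG1+, and the Fc receptor gene Fcgr3 had a log2 fold change of 2.65 (adjusted p = 0.784). Among PD1- cells Itgam averaged 67.8 CPM in Tri PD1-KLRG1+ and 12.6 CPM in Tri PD1-KLRG1-. Myeloid markers there, Itgam included, summed to a mean of 253 and 400 CPM in the same order. Ms4a7 had no count in Tri PD1+KLRG1+, against 0 to 4.33 CPM in Tri PD1+KLRG1- (at least 46.5-fold lower with a floor of 3 counts over the group, adjusted p = 0.388). B cell markers summed to at most 10.03 CPM in Tri PD1+KLRG1+ and 3.93 CPM in Tri PD1+KLRG1-, with Ms4a1 and Pax5 at 0 throughout. Igkc, the immunoglobulin kappa constant region of B-lineage cells, is on none of the lists and was noticed after its values were seen. It was at 81.7, 96.0, 49.75, 40.2 and 33.8 CPM in Tri PD1+KLRG1+, against 27.7, 17.2, 18.95, 18.4 and 18.1 CPM in Tri PD1+KLRG1-, without overlap (1.52 ± 0.34, unadjusted p = 0.00025, adjusted p = 0.166). The part of myeloid and B-lineage transcripts in the results was not tested. CD4 and regulatory T cell markers summed to 429.8 to 645.1 CPM in Tri PD1+KLRG1+ and 299.8 to 715.6 CPM in Tri PD1+KLRG1-. Tnfrsf4 had the highest mean of these, at 189.2 and 226.5 CPM in the same order. Cd4 averaged 2.08 and 0.849 CPM and Foxp3 1.57 and 2.27 CPM. NK and innate-like markers summed to 150.5 to 355.6 CPM in Tri PD1+KLRG1+ and 118.2 to 227.3 CPM in Tri PD1+KLRG1-, with Ncr1 at 0 in all 10 and Cd7, which T cells also express, at 15.0 to 67.6 CPM in Tri PD1+KLRG1+ and 5.31 to 35.9 CPM in Tri PD1+KLRG1- (0.93, adjusted p = 0.446). Tumour and stroma markers summed to 4.49 to 42.65 CPM in Tri PD1+KLRG1+ and 16.4 to 35.2 CPM in Tri PD1+KLRG1-.

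Across 13288 genes tested with edgeR's quasi-likelihood test (Benjamini-Hochberg adjusted p under 0.05), 5 genes rose in Tri PD1+KLRG1+ relative to Tri PD1+KLRG1- (0.0376% of those tested) and 1 fell (0.00753%), together 0.0452%. Beside Klrg1, the genes that rose were the granzymes Gzmb and Gzmk, the chemokine gene Ccl5 and the mitotic kinase gene Plk1. The gene that fell was Klrk1, which encodes the activating receptor NKG2D. At an unadjusted p under 0.05, 280 genes were higher (2.11%) and 755 lower (5.68%), together 1035 (7.79%). Of the 755 lower genes, 518 had no count in at least 1 Tri PD1+KLRG1+ library, while of the 280 higher genes 23 did. A library without a count also lowers its group's level, so these 2 numbers partly restate the direction. Without the 3 sparse libraries, 213 of 14568 genes were higher (1.46%) and 329 lower (2.26%) at an unadjusted p under 0.05. The median log2 fold change over all genes tested was -0.08, and 44% lay above 0. In bulk samples a smaller share of cells expressing a gene and less RNA of that gene per cell cannot be told apart.

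**Figure D2:**
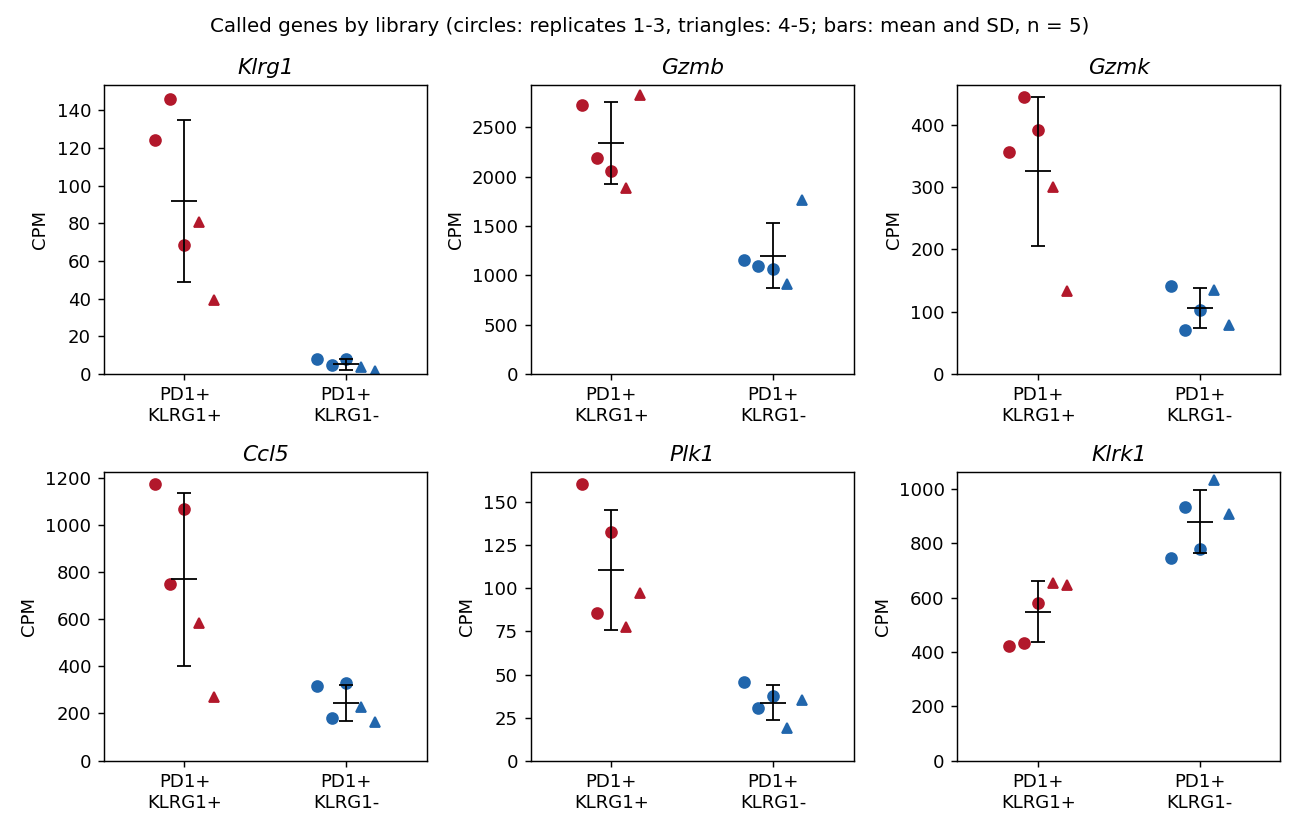
Level in CPM of the 6 genes that passed the test, by library, in Tri PD1+KLRG1+ (red, left) and Tri PD1+KLRG1- (blue, right), with the mean and SD of 5 libraries as bars. Klrg1, Gzmb, Plk1 and Klrk1 do not overlap between the groups, whereas Gzmk and Ccl5 overlap through replicate 5 of Tri PD1+KLRG1+ (132.2 and 269.5 CPM).

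The effector genes that rose encode 2 granule proteases and a chemokine. Gzmb (ENSMUSG00000015437) encodes granzyme B, which cleaves after aspartate and triggers caspase-dependent death of the target cell. It was at 2726, 2186, 2058, 1889 and 2832 CPM in Tri PD1+KLRG1+, against 1159, 1094, 1062, 915 and 1766 CPM in Tri PD1+KLRG1-. No library overlapped, although replicate 5 was the highest of both groups, and the log2 fold change was 0.96 ± 0.17 (SE, edgeR adjusted p = 0.0423). Gzmk (ENSMUSG00000042385) encodes granzyme K, a trypsin-like protease. It was at 356.1, 444.6, 391.6, 300.5 and 132.2 CPM in Tri PD1+KLRG1+, against 140.6, 70.5, 101.7, 134.8 and 78.4 CPM in Tri PD1+KLRG1-. The fold change was 1.55 ± 0.25 on the log2 scale (edgeR adjusted p = 0.0253), and 4 of the 5 Tri PD1+KLRG1+ libraries lay above every Tri PD1+KLRG1- library. Ccl5 (ENSMUSG00000035042), a chemokine that attracts T cells and myeloid cells, was at 1176, 749.7, 1070.0, 583.6 and 269.5 CPM in Tri PD1+KLRG1+. Its values in Tri PD1+KLRG1- were 316.4, 180.6, 329.5, 227.1 and 162.1 CPM. Replicate 5 was the lowest library of both groups, the other 4 Tri PD1+KLRG1+ libraries lay above every Tri PD1+KLRG1- library, and the log2 fold change was 1.56 ± 0.28 (edgeR adjusted p = 0.0471).

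Plk1 (ENSMUSG00000030867), a kinase required for mitotic entry and spindle assembly, was at 160.7, 85.7, 133, 77.8 and 97.1 CPM in Tri PD1+KLRG1+, against 45.8, 30.4, 37.8, 18.7 and 35.4 CPM in Tri PD1+KLRG1-. Every Tri PD1+KLRG1+ library exceeded every Tri PD1+KLRG1- library, and the log2 fold change was 1.72 ± 0.28 (edgeR adjusted p = 0.0253). Klrk1 (ENSMUSG00000030149), whose product senses stress-induced ligands on tumour cells and costimulates CD8+ T cells, was at 423.3, 434.1, 579.7, 652.3 and 648.1 CPM in Tri PD1+KLRG1+ and 745.1, 933.4, 780.3, 1033 and 906.8 CPM in Tri PD1+KLRG1-. All 5 KLRG1+ libraries were below all 5 KLRG1- libraries, with a log2 fold change of -0.69 ± 0.12 (edgeR adjusted p = 0.0423). Over all genes tested, 273 were lower without overlap (2.05%).

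The calls other than Klrg1 lay close to the threshold and depended on the libraries fitted and on the model. Klrg1 was called in 22 of the 24 alternative fits that held it. It lost the call within libraries with the RNA-number suffix. The same held with a replicate-number block and only the groups compared (edgeR adjusted p = 0.0559). With all libraries kept, dropping the name-series term left Klrg1 alone called, with edgeR adjusted p of 0.056 for Gzmb, Gzmk and Plk1, 0.217 for Ccl5 and 0.161 for Klrk1. By limma-voom with sample weights Klrg1 and Plk1 were called, with adjusted p of 0.0611 for Gzmb and Gzmk, 0.103 for Ccl5 and 0.110 for Klrk1, whereas DESeq2 called all 6. A replicate-number block gave edgeR adjusted p of 0.00372 for Gzmb, 0.00843 for Gzmk, 0.0221 for Ccl5 and Plk1 and 0.0535 for Klrk1. With only the groups compared as well, these were 0.0559, 0.384, 0.0869, 0.0869 and 0.444, in the order Gzmb, Gzmk, Ccl5, Plk1 and Klrk1. With only the groups compared and no block, they were 0.217, 0.217, 0.153, 0.1145 and 0.217 in that order. With all 27 libraries, edgeR adjusted p was 0.0217 for Gzmb, Gzmk and Ccl5, 0.710 for Plk1 and 0.219 for Klrk1. Median-ratio scaling lost only Klrk1 (edgeR adjusted p = 0.0594), and a minimum count of 50 kept all 6. In 10 fits that each left out 1 of the 10 libraries, Klrg1 was called in all 10. Gzmb was called in 2 (without Tri PD1+KLRG1+ replicate 4 or Tri PD1+KLRG1- replicate 5), with edgeR adjusted p over the 10 fits of 0.000489 to 0.178. Gzmk was called in 2 (without Tri PD1+KLRG1+ replicate 5 or Tri PD1+KLRG1- replicate 4; 0.00174 to 0.136) and Ccl5 in 1 (without Tri PD1+KLRG1+ replicate 5; 0.00941 to 0.180). Plk1 was called in 4 (without Tri PD1+KLRG1+ replicate 2, 4 or 5 or Tri PD1+KLRG1- replicate 5; 0.0185 to 0.136) and Klrk1 in 2 (without Tri PD1+KLRG1+ replicate 4 or 5; 0.0306 to 0.161). The sizes were steadier than the calls. Over 25 alternative fits the log2 fold change ran from 0.81 to 1.19 for Gzmb, 1.02 to 1.95 for Gzmk, 1.13 to 1.88 for Ccl5, 1.60 to 1.84 for Plk1 and -0.76 to -0.55 for Klrk1. Without the 3 sparse libraries the log2 fold changes were 1.02 for Gzmb, 1.26 for Gzmk, 1.33 for Ccl5, 1.63 for Plk1 and -0.55 for Klrk1, each with an adjusted p of 1.0. With genes detected as a covariate they were 1.08, 1.73, 1.78, 1.81 and -0.66, with adjusted p of 0.257, 0.257, 0.483, 0.257 and 0.493. Within the libraries without the RNA-number suffix they were 1.09, 1.95, 1.88, 1.75 and -0.76, with Klrk1 alone no longer called (edgeR adjusted p = 0.0659). Within those with the suffix they were 0.81, 1.02, 1.13, 1.69 and -0.58, with an adjusted p of 1.0 for each.

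The start-site sequences of 3 genes that rose, and of Cdk1 as a second mitotic gene, are shown because they stand for the granule and mitotic genes that lay higher in the comparison, Cdk1 without passing the test. They come from RefSeq on GRCm38.p6 and run from 250 bases before to 50 bases after the gene's start, 5′ to 3′ on the gene's strand. Capitals mark matches, on either strand, to 4 motifs: CCAAT (the box bound by NF-Y), TTTGAA (the cell cycle genes homology region of late cell cycle promoters), TGTGGT (a RUNX core) and GTGTGA (a T-box element). No 2 matches overlapped.
Plk1, chr7:122159185-122159484, plus strand: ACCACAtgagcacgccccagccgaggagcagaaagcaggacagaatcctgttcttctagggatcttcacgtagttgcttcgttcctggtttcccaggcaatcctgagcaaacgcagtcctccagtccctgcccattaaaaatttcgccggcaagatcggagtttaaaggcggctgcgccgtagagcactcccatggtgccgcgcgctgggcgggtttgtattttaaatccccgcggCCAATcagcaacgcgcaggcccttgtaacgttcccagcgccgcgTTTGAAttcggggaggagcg
Cdk1, chr10:69352863-69353162, minus strand: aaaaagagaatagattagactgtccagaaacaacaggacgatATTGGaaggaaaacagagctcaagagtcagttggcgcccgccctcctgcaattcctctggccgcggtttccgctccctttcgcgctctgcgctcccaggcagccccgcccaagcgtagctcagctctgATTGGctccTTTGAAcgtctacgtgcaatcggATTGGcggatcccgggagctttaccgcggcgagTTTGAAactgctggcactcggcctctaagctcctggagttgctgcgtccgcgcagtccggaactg
Gzmb, chr14:56262285-56262584, minus strand: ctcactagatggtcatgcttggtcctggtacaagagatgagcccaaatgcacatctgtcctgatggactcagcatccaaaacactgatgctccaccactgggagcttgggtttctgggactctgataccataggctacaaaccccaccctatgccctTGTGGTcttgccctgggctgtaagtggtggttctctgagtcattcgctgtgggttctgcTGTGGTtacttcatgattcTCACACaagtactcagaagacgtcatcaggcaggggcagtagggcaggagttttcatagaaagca
Gzmk, chr13:113180916-113181215, minus strand: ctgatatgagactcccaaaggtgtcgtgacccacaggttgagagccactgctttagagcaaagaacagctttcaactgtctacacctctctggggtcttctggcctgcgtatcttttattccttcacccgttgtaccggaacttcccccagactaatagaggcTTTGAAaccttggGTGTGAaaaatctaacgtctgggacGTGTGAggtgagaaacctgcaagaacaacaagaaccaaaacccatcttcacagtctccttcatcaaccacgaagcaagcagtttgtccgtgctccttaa
Plk1 holds 1 CCAAT, 1 TTTGAA and 1 TGTGGT, and Cdk1 holds 3 CCAAT and 2 TTTGAA. Gzmb holds 2 TGTGGT and 1 GTGTGA, and Gzmk 1 TTTGAA and 2 GTGTGA. Ccnb1 and Klrk1 were also examined and are not printed. Ccnb1, on the cell cycle list, holds 2 CCAAT and 0 TTTGAA, and Klrk1, which fell, holds 1 CCAAT and 1 TGTGGT. Of all 32851 promoters in the table, 37.4% hold CCAAT, 17.9% TTTGAA, 16.8% TGTGGT and 14.5% GTGTGA. Of 30 listed cell cycle genes, 24 have a promoter in the table, and 21 of these hold CCAAT (87.5%), 11 TTTGAA (45.8%), 5 TGTGGT (20.8%) and 3 GTGTGA (12.5%). A match describes letters in this window and shows no binding.

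Cell cycle genes lay higher in KLRG1+ cells as a group, though Plk1 alone passed the test. All 30 listed genes were tested, and 29 had a log2 fold change above 0 (44% of all genes). At an unadjusted p under 0.05, 19 of the 30 were higher (2.11% of all genes were) and 0 lower (5.68%). The list's median was 0.82, against -0.08 over all genes tested and -0.002 over those with a mean of at least 50 CPM. Summed over the list, the level was 7322, 5629, 5604, 4544 and 5501 CPM in Tri PD1+KLRG1+, against 3912, 3750.0, 3606, 2815 and 3586 CPM in Tri PD1+KLRG1-. The lowest KLRG1+ library was above the highest KLRG1- library.

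The members covered several steps of the cycle. Among DNA synthesis genes, Rrm1, the large subunit of ribonucleotide reductase, was at 205.4 to 477.1 CPM in Tri PD1+KLRG1+ and 119.8 to 200.4 CPM in Tri PD1+KLRG1-, without overlap (1.03, edgeR adjusted p = 0.378). Its partner Rrm2 had a log2 fold change of 1.27 and the replication clamp Pcna one of 0.77 (adjusted p = 0.286 and 0.246). The replicative helicase genes were less uniform, with 0.72 for Mcm5, 0.32 for Mcm6, 0.25 for Mcm2, 0.19 for Mcm7, 0.14 for Mcm3 and -0.25 for Mcm4. Among mitotic genes, Hmgb2, a chromatin protein abundant in dividing cells, was at 1087, 1142, 1126, 683.6 and 844.4 CPM in Tri PD1+KLRG1+, against 609.3, 523.3, 597.1, 423.6 and 473.6 CPM in Tri PD1+KLRG1-. Its groups did not overlap, and its adjusted p of 0.0643 missed the threshold (0.88 ± 0.17). The chromosome-decatenating enzyme gene Top2a was at 182.8 to 351.8 CPM in Tri PD1+KLRG1+ and 87.3 to 162.9 CPM in Tri PD1+KLRG1- (0.87), and the chromosomal passenger kinase gene Aurkb at 64.8 to 125.9 CPM and 22.96 to 58.8 CPM (1.05), neither with overlap. Mki67, the proliferation antigen, averaged 207.9 ± 62.2 CPM in Tri PD1+KLRG1+ and 104.2 ± 38.3 CPM in Tri PD1+KLRG1- (SD, n = 5 each), with 1 library of the KLRG1- group, replicate 2 at 171.7 CPM, inside the KLRG1+ range. The cyclin-dependent kinase gene Cdk1 averaged 97.8 ± 35.7 CPM in Tri PD1+KLRG1+ and 44.0 ± 15.4 CPM in Tri PD1+KLRG1- (1.17, adjusted p = 0.339). In all, 5 of the 30 genes had every KLRG1+ library above every KLRG1- library (0.497% of all genes did).

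The list's median was 0.53 without the 3 sparse libraries, where 7 members were higher at an unadjusted p under 0.05 (1.46% of all genes were), and 0.30 with genes detected as a covariate. It was 0.83 within the libraries without the RNA-number suffix and 0.78 within those with it. In Tri PD1- cells, which share no library with this comparison, all 30 members had a log2 fold change above 0 (50% of all genes did), with a median of 0.58, and 12 were higher at an unadjusted p under 0.05 (2.27%) and 0 lower (2.86%). Their summed level was 5295 ± 658.8 CPM in Tri PD1-KLRG1+ (n = 4) and 3608 ± 901.7 CPM in Tri PD1-KLRG1- (SD, n = 5). The difference between the PD-1 gates, tested in edgeR, passed adjustment for 0 of the 30 genes. Plk1 alone had an unadjusted p under 0.05 for that difference.

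**Figure D3:**
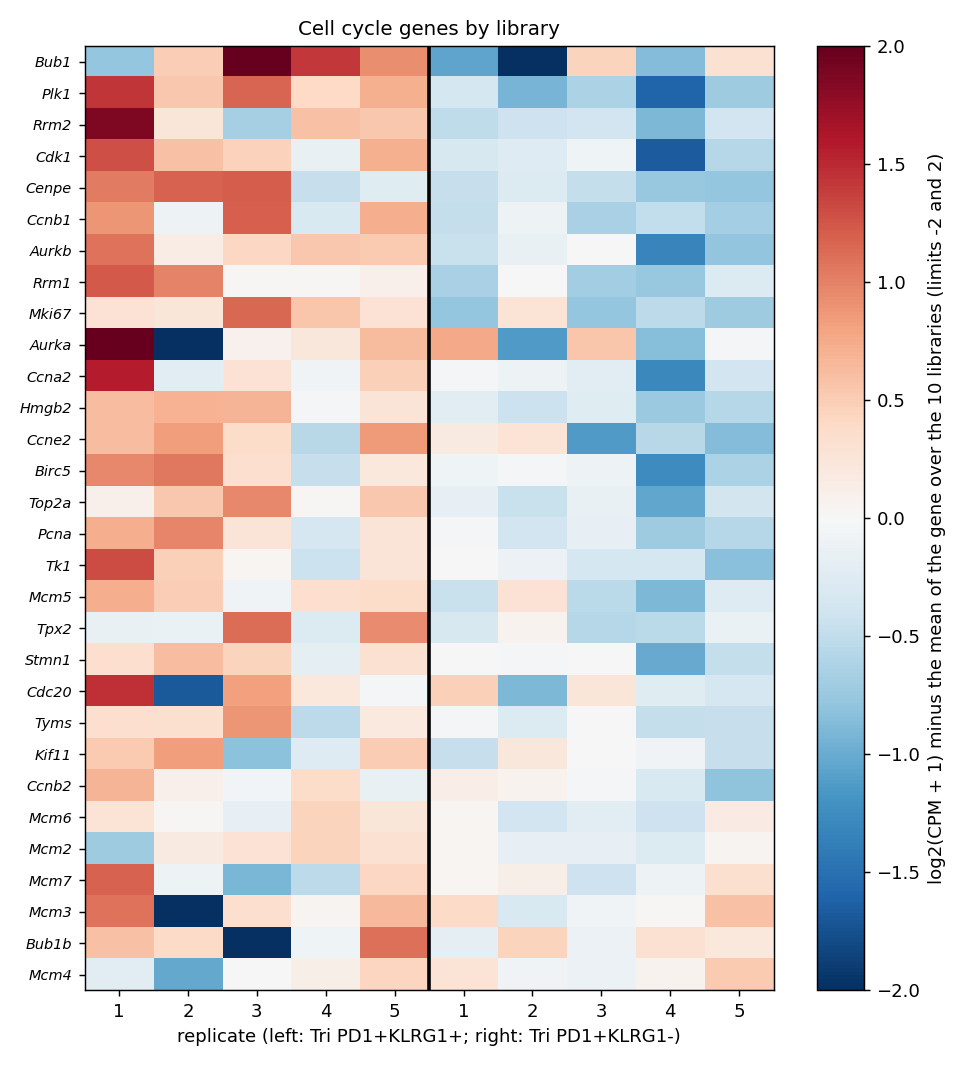
Each row is 1 of the 30 cell cycle genes and each column 1 library, Tri PD1+KLRG1+ replicates 1 to 5 left of the line and Tri PD1+KLRG1- replicates 1 to 5 right of it; colour is log2(CPM + 1) minus the gene's mean over the 10 libraries. Reds prevail on the left for 29 genes with a log2 fold change above 0, whereas Mcm4 at the bottom is at -0.25 and Aurka and Mcm3 in replicate 2 and Bub1b in replicate 3 of Tri PD1+KLRG1+ lie at the lower limit of the scale.

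Among 18 granule and killing genes, 2 rose (Gzmb and Gzmk), none fell, and the median log2 fold change was 0.39. At an unadjusted p under 0.05, 5 were higher and 1 lower (2.11% and 5.68% of all genes). Gzma, which encodes granzyme A and whose values were seen before it was chosen for description, was at 204.8, 102.8, 177.8, 81.3 and 0.883 CPM in Tri PD1+KLRG1+, against 12.2, 21.5, 18.1, 6.56 and 0.140 CPM in Tri PD1+KLRG1-. Of the KLRG1+ libraries, 4 lay above every KLRG1- library, but replicate 5 was near 0 in both groups, and the test gave 3.32 ± 0.73 with an adjusted p of 0.153. Prf1, the pore-forming perforin, was at 882.1 to 1163 CPM in Tri PD1+KLRG1+ and 706.9 to 1170.0 CPM in Tri PD1+KLRG1- (0.04, adjusted p = 1.0). The clustered granzymes Gzmc and Gzmf overlapped widely (0.42 and 0.36, adjusted p = 1.0 for both), and reads of these near-identical genes may be split between them. Ctsc, the protease that activates pro-granzymes, was at 164.3 to 255 CPM in Tri PD1+KLRG1+ and 301.2 to 424.2 CPM in Tri PD1+KLRG1-, without overlap but with an adjusted p of 0.283 (-0.72). The granzyme-inhibiting serpin gene Serpinb9 and its relative Serpinb6b had log2 fold changes of 0.47 and 0.86 (adjusted p = 0.442 and 0.286).

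Of 17 effector cytokines and chemokines, 16 were tested and Ccl5 alone passed the test, with a list median of -0.08. At an unadjusted p under 0.05, 3 were higher and 4 lower (2.11% and 5.68% of all genes). The inflammatory chemokine genes Ccl3 and Ccl4 were at 376.7 to 740.4 CPM and 619 to 855.1 CPM in Tri PD1+KLRG1+, against 91.1 to 272.4 CPM and 213.4 to 394.8 CPM in Tri PD1+KLRG1-. Neither gene overlapped between the groups, and neither passed the test (1.62 ± 0.47, adjusted p = 0.336, and 1.29 ± 0.43, adjusted p = 0.379). In PD1- cells Ccl3 and Ccl4 had log2 fold changes of -0.62 and -0.90, and the difference between the gates had unadjusted p of 0.0052 and 0.00296 and did not pass adjustment. Ifng, which encodes interferon gamma, was at 392.2 to 565.9 CPM in Tri PD1+KLRG1+ and 273.7 to 435.5 CPM in Tri PD1+KLRG1- (0.40, adjusted p = 0.986). Ltb, a lymphotoxin subunit, was at 559.2 to 841.6 CPM in Tri PD1+KLRG1+ and 814.8 to 1137 CPM in Tri PD1+KLRG1- (-0.59, adjusted p = 0.286).

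**Figure D4:**
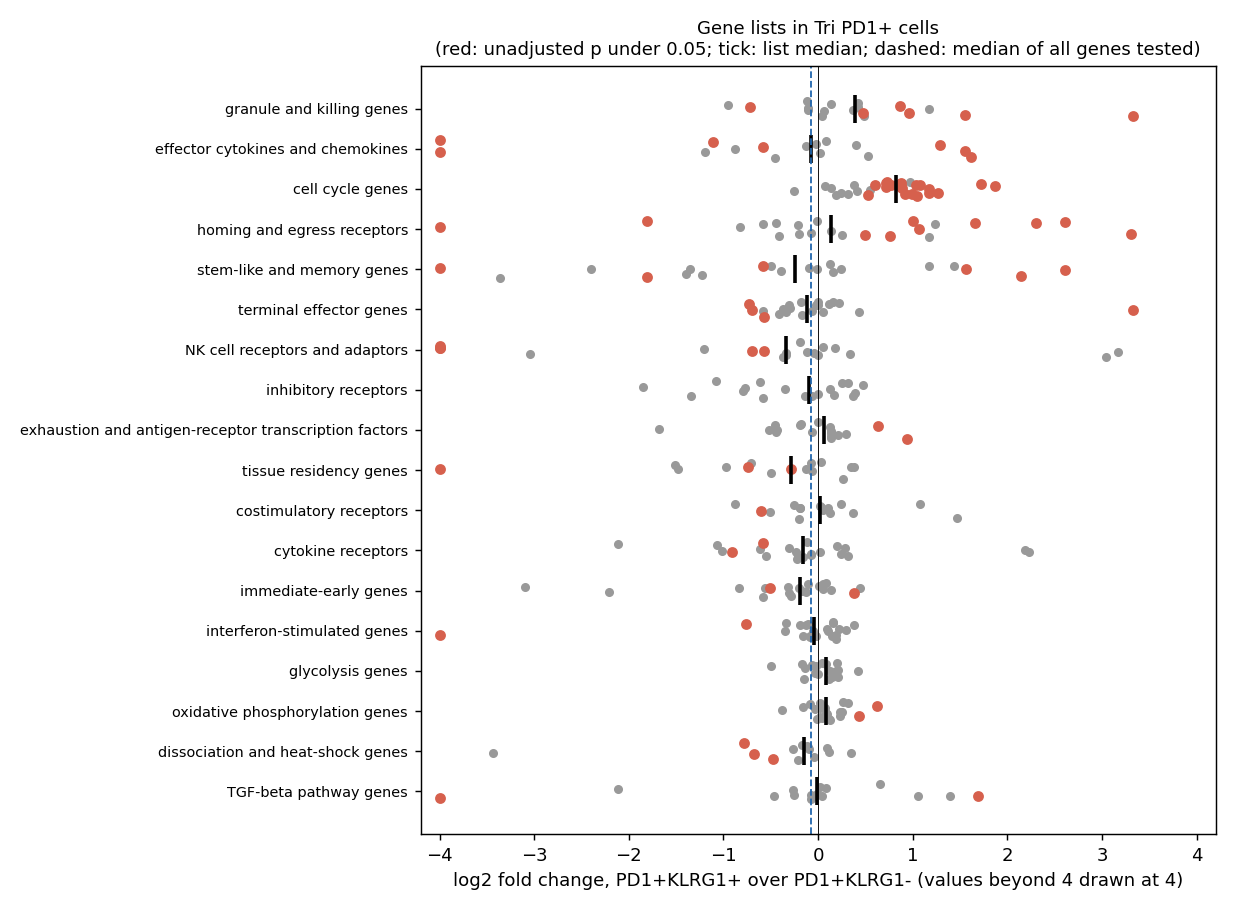
Log2 fold change of Tri PD1+KLRG1+ over Tri PD1+KLRG1- for each tested member of 18 gene lists (points; red at an unadjusted p under 0.05), with each list's median as a tick and the median of all genes tested, -0.08, as a dashed line; values beyond 4 are drawn at 4. The cell cycle list has the highest median, 0.82, and granule genes follow at 0.39.

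Of 23 NK cell receptor and adaptor genes listed, 19 were tested, Klrk1 fell and none rose, and the median log2 fold change was -0.34. At an unadjusted p under 0.05, 5 were lower (5.68% of all genes were) and 0 higher. Of these 5, 3 had no count in at least 1 Tri PD1+KLRG1+ library, namely Klra6, Klra9 and Klrc3. They lay near the floor in Tri PD1+KLRG1- too, with means of 0.895, 0.867 and 0.453 CPM. Klrc1, the inhibitory receptor chain NKG2A, was at 344.2, 742.8, 523.7, 657 and 857.6 CPM in Tri PD1+KLRG1+ and 936.1, 782.9, 948.2, 856.9 and 1115 CPM in Tri PD1+KLRG1- (-0.57, adjusted p = 0.402). Its partner Klrd1 had a log2 fold change of -0.37 (adjusted p = 0.906). Members of the Klra and Klrc families are near-identical, and their separate counts are uncertain. Klra9 had no count in any KLRG1+ library, and 3 of the 5 KLRG1- libraries had none either.

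Of 22 terminal effector genes tested beside Klrg1, 0 rose and 1 fell, Klrk1, with a median log2 fold change of -0.12. At an unadjusted p under 0.05, 1 was higher and 3 lower (2.11% and 5.68% of all genes). The higher member was Gzma, described above with the granule genes (3.32). The effector transcription factor genes Tbx21, Zeb2, Id2 and Prdm1 had log2 fold changes of -0.02, -0.17, 0.05 and -0.07 (adjusted p = 1.0 for each). Cx3cr1, a fractalkine receptor of circulating effector cells, was at 43.2 to 166.1 CPM in Tri PD1+KLRG1+ and 132.7 to 180.6 CPM in Tri PD1+KLRG1- (-0.58, adjusted p = 0.848). In PD1- cells the list's median was 0.34 and 8 members were higher at an unadjusted p under 0.05 (2.27% of all genes were), with log2 fold changes of 0.84 for Cx3cr1, 1.65 for Zeb2 and 0.51 for Tbx21. The differences between the gates had unadjusted p of 0.0129, 0.0114 and 0.0547, and none passed adjustment.

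Stem-like and memory genes went both ways. Of 20 tested, none passed the test, 3 were higher and 3 lower at an unadjusted p under 0.05 (2.11% and 5.68% of all genes), and the median was -0.24. Lef1, a transcription factor of naive and memory T cells, was at 72.5, 80.9, 50.9, 70.7 and 29.0 CPM in Tri PD1+KLRG1+, against 18.3, 16.4, 10.3, 31.6 and 34.5 CPM in Tri PD1+KLRG1- (1.56 ± 0.31, adjusted p = 0.0954). The groups overlapped through replicate 5. Its partner Tcf7, which sustains stem-like exhausted cells, was at 0.313, 62.3, 1.70, 50.4 and 0.294 CPM in Tri PD1+KLRG1+ and 45.3, 107.4, 40.9, 82.3 and 21.9 CPM in Tri PD1+KLRG1- (-1.39 ± 0.92, adjusted p = 0.888). Of the KLRG1+ libraries, 3 lay below every KLRG1- library and 2 within their range. Id3, an inhibitor of E proteins, had no count in any Tri PD1+KLRG1+ library, against 4.66, 0, 3.78, 2.97 and 0.558 CPM in Tri PD1+KLRG1-. With a floor of 3 counts over the group it was at least 66.2-fold lower, and its adjusted p was 0.0926. Ccr7, which guides cells to lymph nodes, was at 20.8 to 63.1 CPM in Tri PD1+KLRG1+ and 31.1 to 226.5 CPM in Tri PD1+KLRG1- (-1.81, adjusted p = 0.286), and it fell in the PD1- gate (-3.68, adjusted p = 0.0136). Il7r, the interleukin-7 receptor chain, had a log2 fold change of -0.58 (adjusted p = 0.590).

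Of 24 homing and egress receptors, 23 were tested and none passed, while 8 were higher and 2 lower at an unadjusted p under 0.05 (2.11% and 5.68% of all genes). The integrin gene Itga4 was at 188.2, 153.7, 223.8, 269.8 and 244.2 CPM in Tri PD1+KLRG1+, against 116.1, 99.9, 113.4, 189.6 and 118.8 CPM in Tri PD1+KLRG1- (0.76, adjusted p = 0.198), and its partner chain Itgb7 had 1.07 (adjusted p = 0.286). S1pr1, the receptor that draws T cells out of tissue, was at 62.9, 54.7, 35.8, 110.7 and 5.08 CPM in Tri PD1+KLRG1+ and 9.36, 0.618, 8.86, 25.8 and 1.89 CPM in Tri PD1+KLRG1- (2.61 ± 0.69, adjusted p = 0.286). Klf2, which drives S1pr1 transcription, was at 33.4 to 67.4 CPM in KLRG1+ replicates 1 to 4 and 0 in replicate 5, against 0.618 to 16.7 CPM in Tri PD1+KLRG1- (2.14, adjusted p = 0.472). The chemokine receptor genes Cxcr3 and Ccr2 had log2 fold changes of 1.00 and 1.66 (adjusted p = 0.345 and 0.314), and Itgax one of 2.30 (adjusted p = 0.246). In Cxcr3, Ccr2, Itgax, S1pr1, Klf2 and Gzma, replicate 5 was the lowest Tri PD1+KLRG1+ library.

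Of 20 inhibitory receptor genes listed, 18 were tested, with a median of -0.10. At an unadjusted p under 0.05, 0 were higher and 0 lower (2.11% and 5.68% of all genes), too few genes for that count to differ much from those shares. Havcr2, which encodes TIM-3, was at 306 to 394.8 CPM in Tri PD1+KLRG1+ and 200.8 to 395.7 CPM in Tri PD1+KLRG1- (0.40 ± 0.21, adjusted p = 0.730). Lag3, Tigit, Ctla4 and Entpd1 had log2 fold changes of -0.000176, 0.17, -0.06 and 0.37 (adjusted p = 1.0 for each). Cd5, a scavenger receptor that dampens antigen receptor signals, had 0.48 (adjusted p = 0.735). Among 18 transcription factors of exhaustion and antigen receptor signalling, none passed and the median was 0.06. The exhaustion regulator Tox was at 135.8 to 259.1 CPM in Tri PD1+KLRG1+ and 194 to 266.8 CPM in Tri PD1+KLRG1- (-0.00292 ± 0.27, adjusted p = 1.0). Nr4a1, an early target of the antigen receptor, and Eomes, a T-box factor of effector and exhausted cells, had 0.94 and 0.63 (adjusted p = 0.620 and 0.634).

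None of the remaining lists held a gene that passed the test. Tissue residency genes had a median of -0.28 over 15 tested, with Dusp6, a phosphatase of the ERK pathway, at -0.74 (adjusted p = 0.393) and the chemokine receptor gene Cxcr6 at -0.28 (0.544). The ATP receptor gene P2rx7 had no count in Tri PD1+KLRG1+, against 2.13, 0, 0.0619, 3.04 and 0 CPM in Tri PD1+KLRG1- (adjusted p = 0.401). Costimulatory receptors had a median of 0.02 over 16, with Tnfrsf18, which encodes GITR, at 322.2 to 406 CPM in Tri PD1+KLRG1+ and 329.8 to 718.5 CPM in Tri PD1+KLRG1- (-0.60, adjusted p = 0.330). Cytokine receptors had a median of -0.16 over 23, with Il4ra, the interleukin-4 receptor chain, without overlap at 39.7 to 65.2 CPM in Tri PD1+KLRG1+ and 67.6 to 158.1 CPM in Tri PD1+KLRG1- (-0.91, adjusted p = 0.345). Immediate-early genes had a median of -0.19 over 20, with the AP-1 gene Junb at -0.51 and the phosphatase gene Dusp5 at 0.38 (adjusted p = 0.347 and 0.504). Interferon-stimulated genes had a median of -0.04 over 22, with Stat2 at -0.76 (adjusted p = 0.357). Glycolysis genes had 0.09 over 19 and oxidative phosphorylation genes 0.08 over 21, with Gapdh at 0.21 and the respiratory chain genes Ndufa4 and Uqcrfs1 at 0.62 and 0.43 (adjusted p = 0.878, 0.402 and 0.526). Heat-shock genes, which can be induced by tissue dissociation, had a median of -0.15 over 14, with the near-identical Hspa1a and Hspa1b at -0.79 and -0.67 (adjusted p = 0.479 and 0.379). TGF-beta pathway genes had a median of -0.01 over 15. Their signal transducer Smad3 was at 55.1, 42.6, 45.0, 12.3 and 9.34 CPM in Tri PD1+KLRG1+ and 4.32, 6.24, 16.3, 7.81 and 13.7 CPM in Tri PD1+KLRG1- (1.69 ± 0.53, adjusted p = 0.345). Smad3 was high in the 3 sparse libraries alone, and its log2 fold change without them was -0.03.

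The same contrast in PD1- cells, Tri PD1-KLRG1+ over Tri PD1-KLRG1-, gave smaller values for each of the 5 genes called beside Klrg1, in the same direction. There the log2 fold changes were 0.78 for Gzmb, 0.61 for Gzmk, 0.97 for Ccl5, 0.87 for Plk1 and -0.24 for Klrk1, none past the edgeR adjusted threshold (0.307, 0.935, 0.775, 0.829 and 1.0). In that gate 4 of 13288 genes were called (0.0301%). Mean levels were 3406 and 1973 CPM for Gzmb in Tri PD1-KLRG1+ and Tri PD1-KLRG1-, 861.3 and 548 CPM for Gzmk, and 2324 and 1129 CPM for Ccl5. Plk1 averaged 62.8 and 31.9 CPM and Klrk1 785 and 947.6 CPM in the same order. These 5 genes were picked by their PD1+ values, which favours larger values in PD1+ cells. Tests of the difference between the gates reuse those values. The difference between the gates had unadjusted edgeR p of 0.468 for Gzmb, 0.0161 for Gzmk, 0.160 for Ccl5, 0.0459 for Plk1 and 0.0183 for Klrk1. After adjustment 0 of 13288 genes differed between the gates in edgeR (0%), where 645 had an unadjusted p under 0.05 (4.85%), while edgeR without the count filter called 64, DESeq2 135 and limma-voom 2. For the 5 genes called beside Klrg1 in PD1+ cells, the filtered edgeR fit did not show the effect to differ between the gates.

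**Figure D5:**
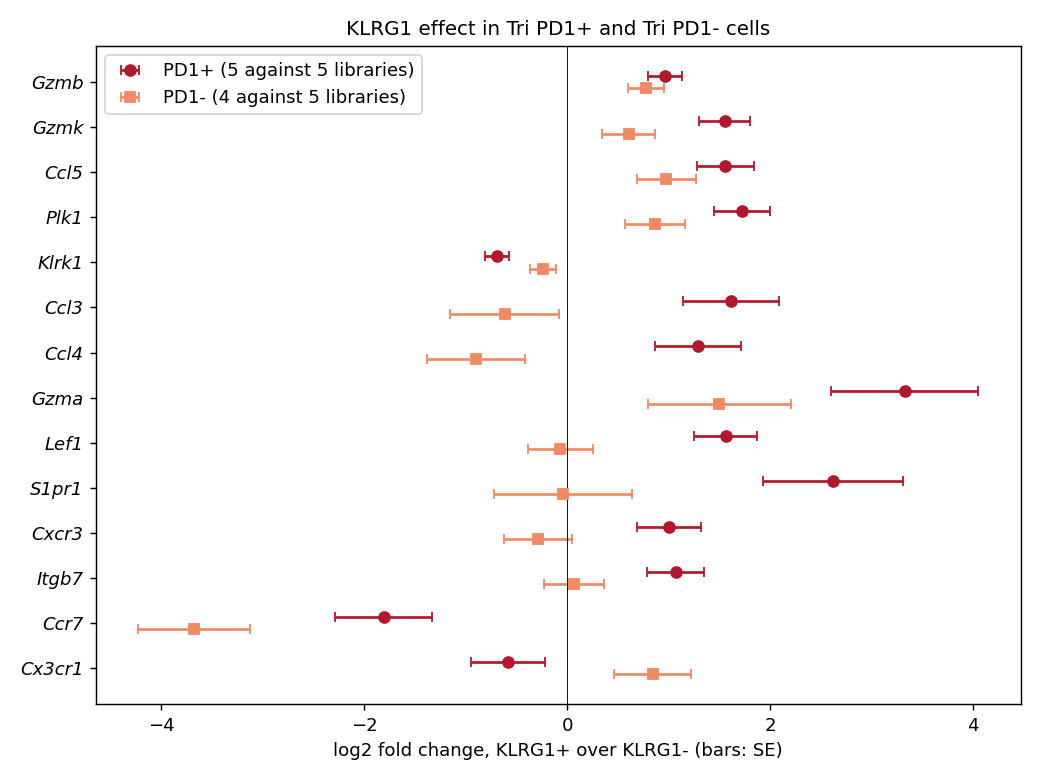
Log2 fold change of KLRG1+ over KLRG1- with its SE in Tri PD1+ cells (circles, 5 against 5 libraries) and Tri PD1- cells (squares, 4 against 5 libraries) for the 5 called genes beside Klrg1 and 9 genes chosen after their values were seen. Gzmb is close in both gates (0.96 and 0.78), while Ccl3 and Ccl4 lie on opposite sides of 0 without passing the test in either gate.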

How the data were processed

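RNA-seq counts of sorted tumour CD8+ T cells were used as the authors deposited them, whole numbers per Ensembl gene for 47729 genes and 27 libraries, without normalization. Per the submitters' processing notes DESeq2 1.26.0 was used, with no role stated. The sources used here do not give the aligner, genome build, annotation or strandedness. GENCODE M21 names supplied symbols for 47224 IDs. Columns were matched to groups through the sample descriptions.

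The 19 Tri libraries (8586184 to 21204098 counts) were fitted together with edgeR 4.0.16 in R 4.3.3. Genes were kept by filterByExpr at a minimum count of 10 (13288 genes), libraries scaled by TMM, and a robust quasi-likelihood model fitted, with terms for group and for name series (description with or without an RNA-number suffix). P-values were adjusted by Benjamini-Hochberg over all genes tested, and genes under 0.05 were called. SEs were derived from each F statistic and its log2 fold change. The Iso libraries were left out of the fit because 1 of them holds 93198 counts. No 2 libraries held identical values. For library measures, exact permutation tests (2-sided) were used.

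The members, the 24 gene lists (394 distinct genes, 365 tested) and the rules were chosen with earlier results of these data known. Genes named by rule were the sort genes and Gzmb, Ccl5 and Gzmk, up to 12 called genes per direction that reached 10 CPM in the higher group without overlap, and from each list up to 4 called members or, where none was called, the 2 with the smallest p. Other list members given in the text were chosen after their values were seen. Folds against a group without counts use a floor of 3 counts over the group, which covers counting error only. With such genes at their bound and genes without counts in both groups left out, 3 list medians moved (cytokine receptors to -0.19, homing receptors to 0.20, terminal effector genes to -0.17). Alternatives were median-ratio scaling, no filter, a minimum count of 50, no series term, genes detected as a covariate, all 27 libraries, DESeq2 1.42.0, sample-weighted limma-voom (limma 3.58.1), a replicate block, only the groups compared, each name series alone and leaving out each library. Added after the data were seen were a mean of at least 50 CPM, leaving out the 3 sparse libraries and the block with only the groups compared. The fit was tested on simulated counts. Promoters were taken from RefSeq (GRCm38.p6). Plots used matplotlib 3.10.9 under Python 3.11.15.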

Additional observations from a re-analysis of the deposited data

Results flagged for a closer look

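Of 102 groups of 5 libraries examined for a value far from the other 4 (gap over range above 0.71), 11 stood out, where chance gives about 5.1. In Tri PD1+KLRG1+, Cd8a was high in replicate 5 (2208 CPM, the others 1671 to 1817) and Cd3e low in replicate 2 (1270.0 CPM, the others 1463 to 1515). Replicate 4 of that group was high for Cd79b (10.03 CPM, the others 0 to 1.40), Foxp3 (7.85 CPM, the others 0) and Pecam1 (20.6 CPM, the others 2.65 to 7.80), and low for the share of ribosomal protein transcripts (2.12%, the others 3.21% to 3.50%). In Tri PD1+KLRG1-, Gzmb was high in replicate 5 (1766 CPM, the others 915 to 1159), Itga4 in replicate 4 (189.6 CPM, the others 99.9 to 118.8) and Oas2 in replicate 5 (1.61 CPM, the others 0 to 0.434). Replicate 2 of that group was high for Itgb8 (21.1 CPM, the others 0 to 1.94) and for well-expressed genes without a count (0.0830%, the others 0).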

How the results depend on the processing

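The calls depended on the model. The 6 calls in PD1+ cells, 4 in PD1- cells and 0 for the interaction became 70, 74 and 64 without the count filter and 194, 155 and 135 in DESeq2. In PD1+ cells 1 gene was called without the series term, 1 with genes detected as a covariate and 1 without the 3 sparse libraries. With only the groups compared 2 were called, of which Klrg1 alone was also called in the main fit. Within libraries without the RNA-number suffix 65 were called (14 higher, 51 lower), and 0 within those with it. For PD1- cells 0 were called with all 27 libraries and 14 by limma-voom with sample weights, and for the interaction 2 by limma-voom and 2 within libraries without the suffix; the cause was not tested. Leaving out 1 library gave 1 to 11 calls in PD1+ cells (11 without Tri PD1+KLRG1+ replicate 5, 1 without its replicate 1 or 3 or without Tri PD1+KLRG1- replicate 1 or 3), 1 to 6 in PD1- cells and 0 to 3 for the interaction. The interaction fit has no version with fewer groups. With the replicate number as a block, 7, 4 and 0 genes were called, and 0 in PD1+ cells when only the groups compared were fitted. Equal numbers were not taken as pairs, since the labels do not say that they share a mouse. Their deviations from the group means correlated at 0.04 to 0.13, and all 5 numbers correlated best with their own, a hint from the data. A shared origin of equal numbers is therefore possible and was not tested. The cell cycle median (0.82) was 0.30 with genes detected as a covariate, 0.53 without the sparse libraries, and 0.66 to 0.91 leaving out 1 library. The difference in genes detected (-2566) was -3340 within libraries without the suffix (exact permutation p = 0.1, the smallest 3 against 3 allows) and -2939 to -2278 leaving out 1 library. The 6 called genes lost the call in 80 of 149 alternative values and kept their direction in each. Of 931 values of the 39 other named genes, 892 kept direction and stayed uncalled, 15 were called and 24 reversed uncalled. Cd79b was -4.17 with only the groups compared, -0.27 with the block, -1.73 with both, -7.88 within libraries without the suffix (as was the B cell list, of which it is the 1 gene tested) and -2.39 to 1.03 leaving out 1 library. Ptprc was -0.12 within libraries with the suffix, -0.0146 without the sparse libraries, and -0.0245 to 0.12 leaving out 1 library. Cd3e was 0.0511 with the suffix, 0.0738 without the sparse libraries and -0.16 to 0.00948 leaving out 1 library. Cd4 was -0.33 without the suffix, Foxp3 1.74 and Slamf7 -0.0364 with it. Without the sparse libraries Slamf7 was -0.00672, Pdcd1 0.000488, Pdk1 -0.0111, Smad3 -0.0263 and Cd3g 0.0294. The exhaustion list was -0.14 with the suffix and the tumour and stroma list 0.98 without the sparse libraries. Median-ratio scaling moved the median of all genes by 0.04 in PD1+ cells and 0 of 23 list medians moved past the spread between libraries. Sign changes within that spread were not counted. The 3 sparse libraries limit what can be said of genes at low level.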

Other observations

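Leaving out called genes, genes averaging under 50 CPM and genes without a count in any 1 of the 10 libraries, the 10 with the smallest p, a selection made after the values were seen, were Hmgb2, Jaml, Pclaf, Cdc25b, Gzma, Hist1h2ap, Acss1, Cdt1, Hjurp and Itga4. Of these, Jaml and Acss1 were lower and the other 8 higher. Pclaf, a partner of the replication clamp, averaged 239 ± 72.2 CPM in Tri PD1+KLRG1+ and 95.9 ± 29.9 CPM in Tri PD1+KLRG1- (SD, n = 5 each), without overlap (edgeR adjusted p = 0.131). The histone gene Hist1h2ap averaged 507.1 ± 215.7 CPM in Tri PD1+KLRG1+ and 193.3 ± 88.7 CPM in Tri PD1+KLRG1-, with overlap (1.43, adjusted p = 0.156). The phosphatase gene Cdc25b, the replication licensing gene Cdt1 and the centromere chaperone gene Hjurp had log2 fold changes of 1.39, 1.17 and 0.98 (adjusted p = 0.133, 0.176 and 0.190), and Acss1, an acetyl-CoA synthetase, had -1.56 (adjusted p = 0.176). Jaml, which encodes an adhesion molecule of T cells, was at 120.5, 259.7, 141.2, 285.1 and 269.7 CPM in Tri PD1+KLRG1+ and 574.7, 408.4, 418.5, 388.6 and 476.1 CPM in Tri PD1+KLRG1-, without overlap (-1.10 ± 0.23, adjusted p = 0.131).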
